A study of Mus musculus with 48 samples.

Results

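The cryptochromes *Cry1* and *Cry2* were followed in the colon of mice with and without *Bmal1* in the intestinal epithelium. Both genes were taken by symbol from the deposited read count table through their Ensembl identifiers (GENCODE vM21), which makes 2 of the 55401 genes listed. *Cry1* (ENSMUSG00000020038.10) lies on the minus strand of chromosome 10, from 85131700 to 85185064 (mm10), with 3340 bases of exon. *Cry2* (ENSMUSG00000068742.11) lies on the minus strand of chromosome 2, from 92403646 to 92434043, with 6320 bases of exon. The study sequenced RNA of whole colon from 48 male mice on the C57BL/6J background, collected at 6 circadian times with 4 mice per time and genotype (CT1, CT5, CT9, CT13, CT17 and CT21), housed singly with a running wheel and free access to chow. They had lived in light-dark cycles and were collected on day 2 of darkness. All mice carried both floxed alleles (Bmal1fl/fl). In Bmal1IEC-/- mice the Villin promoter drove 1 copy of Cre, so that *Bmal1* was removed from epithelial cells and stayed intact in muscle, stroma, nerve and immune cells of the same tissue. Control mice were littermates of the genotype Bmal1fl/fl x Villin wt/wt, so no group controls for Cre itself. The study's methods give an age of 18 to 20 weeks for male mice unless stated otherwise.

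CRY1 and CRY2 are the main repressor proteins of the mammalian clock. CLOCK and BMAL1 switch on *Cry* and *Per* genes through E-box sequences, and the CRY and PER proteins return to the nucleus and block CLOCK and BMAL1, which closes a loop of about a day. *Cry1* also carries elements that REV-ERB proteins repress, and its transcript is known for peaking later than most direct targets of CLOCK and BMAL1. REV-ERBα and REV-ERBβ are themselves products of such targets, *Nr1d1* and *Nr1d2*.

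The sequence around each start site is shown because the E-box is the element through which the deleted factor acts. The windows, from RefSeq on GRCm38.p6, reach 250 bases before to 50 after the start and are written 5′ to 3′ on the gene's strand. They lie at chr10:85185005-85185304 for *Cry1* and chr2:92434020-92434319 for *Cry2*. Capitals mark the E-box CACGTG and the related letters CACGTT on either strand.
Cry1: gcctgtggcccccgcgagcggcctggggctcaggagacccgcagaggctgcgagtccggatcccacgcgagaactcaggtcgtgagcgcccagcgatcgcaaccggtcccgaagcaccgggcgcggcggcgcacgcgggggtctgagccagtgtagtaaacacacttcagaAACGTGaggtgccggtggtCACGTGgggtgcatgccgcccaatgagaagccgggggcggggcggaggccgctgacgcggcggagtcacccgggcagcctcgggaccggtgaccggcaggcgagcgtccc
Cry2: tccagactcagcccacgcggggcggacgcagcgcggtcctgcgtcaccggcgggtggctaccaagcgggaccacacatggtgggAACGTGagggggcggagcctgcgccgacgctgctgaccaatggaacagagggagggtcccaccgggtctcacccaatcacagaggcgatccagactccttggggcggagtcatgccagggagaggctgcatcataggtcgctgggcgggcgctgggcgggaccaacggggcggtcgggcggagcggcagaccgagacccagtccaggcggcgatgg
The *Cry1* window held 1 CACGTG and 1 CACGTT, and the *Cry2* window held 1 CACGTT and 0 CACGTG. With the first transcribed base counted as 0, the E-box of *Cry1* spans -60 to -55 and its CACGTT -79 to -74, while the CACGTT of *Cry2* spans -166 to -161. CACGTG reads the same on both strands and does not overlap CACGTT here. Of all 32851 RefSeq windows of this length, 7.15% held CACGTG and 4.68% held CACGTT. Among the windows of 15 other clock genes, those of 4 (*Per1*, *Ciart*, *Tef* and *Bhlhe41*) held CACGTG. The D-box letters TTATGTAA and TTACGTAA, the REV-ERB and ROR element letters TAGGTCA and TGGGTCA, and the cyclic AMP response element TGACGTCA were in neither window. They were in 0.938%, 0.119%, 2.61%, 3.98% and 1.79% of all windows, in that order. A match is a description of letters, and sequence outside the windows was not searched. The GC content was 72.3% for *Cry1* and 70.3% for *Cry2*, against a median of 52.7% over all windows.

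The total count over genes ranged from 3144997 to 4785844 per mouse. Within this depth *Cry1* had 26 to 374 and *Cry2* 107 to 404 counts per mouse. Normalized counts are counts divided by a size factor for each library, and unless stated otherwise results are over 46 mice (24 control, 22 Bmal1IEC-/-). The size factors in the study's own rhythm table matched those of these 46 mice, without replicates SV384 and SV385 of Bmal1IEC-/- at CT1, to within 1.96e-07. Both mice are shown where they bear on a value, and the CT1 group of Bmal1IEC-/- otherwise has n = 2. Each library is 1 mouse. No sequencing batch is named in the labels.

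The deleted gene, listed as *Arntl*, was counted over all its exons and all cells of the colon, so its count does not show the removed segment alone. Normalized counts of single control mice lay between 15.9 and 35.2 at CT9 and between 246 and 286 at CT1. In Bmal1IEC-/- mice they lay between 85.8 and 158 at CT9, and were 172.5 and 182 at CT1. The time course of *Arntl* thus spanned a narrower range in Bmal1IEC-/- mice, and its cosine and sine terms differed between genotypes (adjusted p = 5.05e-13). Over all times its count was not called lower or higher (log2 fold change 0.32, SE 0.17, adjusted p = 0.241). It was higher in Bmal1IEC-/- mice at CT9 (2.08, adjusted p = 1.58e-10) and CT13 (1.93, adjusted p = 5.14e-10), and lower at CT21 (-0.86, adjusted p = 0.000541).

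In control colon *Cry1* was low in the subjective day and high in the subjective night. At CT5, the lowest time, the 4 mice had 26.3, 28.0, 32.1 and 49.5 normalized counts, with a mean of 34.0 ± 10.6 (SD, n = 4). At CT9 they had 38.3, 39.3, 75.3 and 84.0, with a mean of 59.2 ± 23.9 (SD, n = 4). The CT9 mice fell into a low and a high pair, and their range overlapped that of CT5. At CT1 the values were 109, 112, 115 and 118, a narrow group that lay above every mouse of CT5 and CT9. At CT13 they were 119, 183, 184 and 200.3, at CT17 163, 183, 195 and 209, and at CT21 157, 195, 204 and 209. These last 3 groups overlapped one another, and every mouse in them lay above every CT1 mouse. The highest group mean, 191 ± 23.2 (SD, n = 4) at CT21, was 5.63 times the lowest.

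In Bmal1IEC-/- colon *Cry1* stayed above the control range all day. At CT5 the mice had 224, 238, 268 and 289.6 normalized counts, at CT9 228, 264, 267 and 275, and at CT13 253, 256, 261 and 288. At CT17 they had 265, 287, 299 and 299.7, at CT21 297, 316, 319.7 and 323, and at CT1 318 and 325. Each of the 22 mice exceeded the highest control mouse of any time (209), and the lowest of them had 224. The share of all genes with such a separation was not counted. Ordered by mean, the groups ran CT5, CT9, CT13, CT17, CT21 and CT1, and each neighbouring pair in that order overlapped. Farther apart in the order, every mouse of CT21 and CT1 lay above every mouse of CT5, CT9 and CT13. The highest group mean was 1.26 times the lowest.

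**Figure D1:**
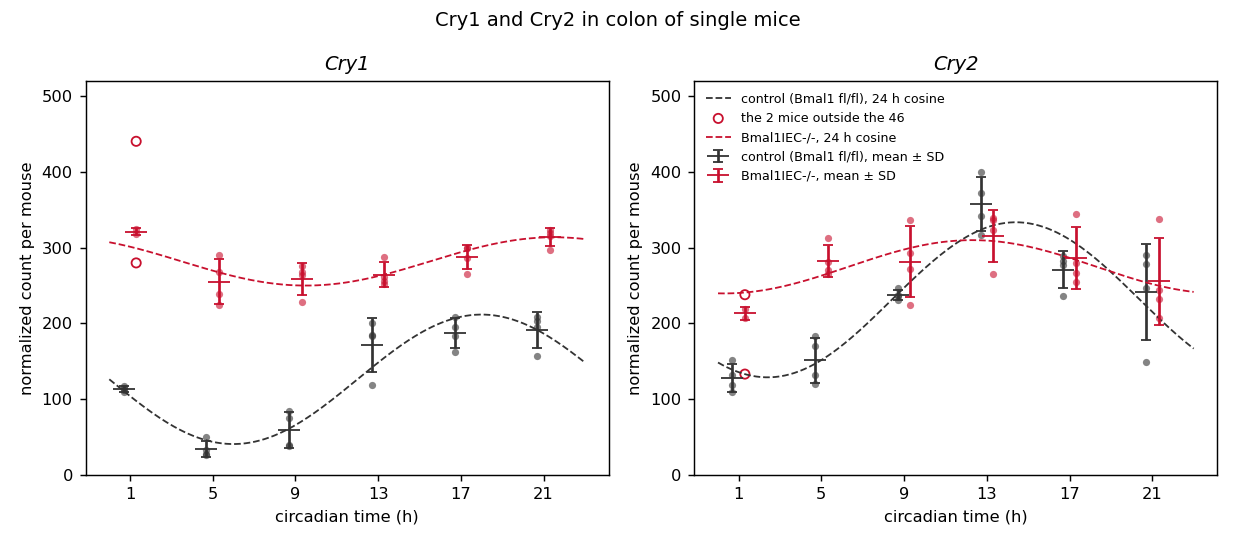
Normalized counts of *Cry1* (left) and *Cry2* (right) against circadian time in hours. Filled points are single mice of the 46, bars are the group mean ± SD, dashed lines are 24 h cosine fits, and open circles are the 2 Bmal1IEC-/- mice outside the 46. Every Bmal1IEC-/- point for *Cry1* sits above the highest control point of 209. For *Cry2* the filled points overlap from CT9 to CT21, and 1 open circle at CT1 (133) lies inside the control range of that time.

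Over all circadian times *Cry1* was 2.42-fold higher in Bmal1IEC-/- mice, a log2 fold change of 1.28 (SE 0.13, adjusted p = 3.94e-10). This passed both the adjusted p and the 1.5-fold threshold, as did 0.67% of the 14475 genes tested in the higher direction. The control mean was 126 ± 66.4 (SD, n = 24) and the Bmal1IEC-/- mean 280.1 ± 30.4 (SD, n = 22) normalized counts. The median log2 fold change of all genes tested was 0.00. In whole tissue, a change in the number of cells of a type and a change in RNA per cell cannot be told apart.

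The genotype difference in *Cry1* was large where the control was low and small where the control was high. At CT5 it reached a log2 fold change of 2.91 (SE 0.17, adjusted p = 1.61e-16), a 7.53-fold difference, and only 1 of the 14475 genes had a smaller p at that time. At CT9 it was 2.12 (SE 0.16, adjusted p = 2.62e-13) and at CT1 1.5 (SE 0.17, adjusted p = 2.01e-07). In the night it was 0.62 (SE 0.14, adjusted p = 0.0040) at CT13, 0.62 (SE 0.14, adjusted p = 0.00956) at CT17 and 0.72 (SE 0.14, adjusted p = 0.00331) at CT21. *Cry1* was therefore called higher at 6 of 6 times, and at each of them the genotypes did not overlap. The share of all genes without overlap was not counted. The share of all genes called higher was 0.843% at CT1, 0.311% at CT5, 0.94% at CT9, 2.26% at CT13, 0.394% at CT17 and 0.187% at CT21. The call at CT17 was lost without control replicate SV417 (log2 fold change 0.56, adjusted p = 0.0616).

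The difference between day and night was itself tested. With CT1, CT5 and CT9 taken as day, the log2 fold change of *Cry1* was lower at night by -1.32 (SE 0.22, adjusted p = 0.00121), in a test that 0.0691% of genes passed. Across single times, the shape of the time course also differed between genotypes (adjusted p = 2.21e-10), as it did for 0.58% of genes.

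**Figure D2:**
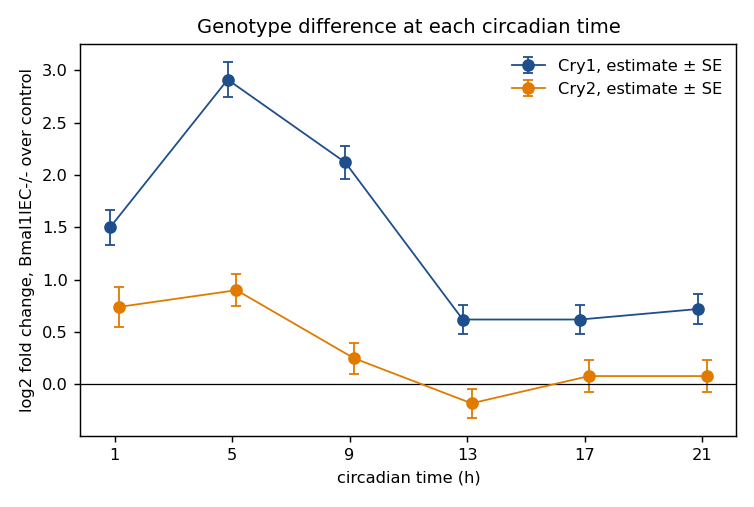
Log2 fold change of Bmal1IEC-/- over control (vertical axis) at each circadian time in hours (horizontal axis), as estimate ± SE, for *Cry1* and *Cry2*. *Cry1* lies above 0 at each time and is highest at CT5 (2.91), while *Cry2* is highest at CT5 (0.90) and lies near 0 from CT13 to CT21.

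*Cry2*, the paralog of *Cry1*, had a different course in control colon, with its maximum at CT13. At CT1 the 4 control mice had 109, 119, 132 and 151 normalized counts, and at CT5 120.5, 132, 169.9 and 183. These 2 groups overlapped and were the lowest. At CT9 the mice had 231, 235, 237 and 247, all above CT5. At CT13 they had 317, 342, 372 and 399.6, a mean of 358 ± 36.0 (SD, n = 4), and every one of them exceeded every mouse of the other times. At CT17 the values were 236, 277, 282 and 289, and at CT21 they were 149.5, 246, 278 and 291. The mouse at 149.5 (SV476) lay below the other CT21 mice, although its *Cry1* value of 204 was within their range. The highest group mean was 2.8 times the lowest.

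In Bmal1IEC-/- colon *Cry2* was higher than control early in the day and overlapped it afterwards. At CT1 the mice had 207 and 219 normalized counts, and at CT5 265, 271, 282 and 313. None of these overlapped the control mice of the same time, and the share of all genes for which this held was not counted. At CT1 this rests on 2 mice, and SV384, outside the 46, had 133, inside the control range of that time. At CT9 the Bmal1IEC-/- mice had 225, 272, 293 and 337, at CT13 265, 323, 337 and 339, and at CT17 254, 267, 279.7 and 345. At CT21 they had 208, 232, 244 and 338. At these 4 times the genotypes overlapped, and at CT13 the mean in Bmal1IEC-/- mice, 316 ± 34.6 (SD, n = 4), was below that of control. Each neighbouring pair of the Bmal1IEC-/- groups overlapped in the order of their means, and the highest was 1.48 times the lowest. Both Bmal1IEC-/- mice of CT1 lay below every Bmal1IEC-/- mouse of CT5, CT9, CT13 and CT17.

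The test of *Cry2* gave a log2 fold change of 0.90 (SE 0.15, adjusted p = 0.000438) at CT5, a 1.86-fold difference. At CT1 it was 0.74 (SE 0.19, adjusted p = 0.0366). The other times did not pass. They gave 0.25 (SE 0.15, adjusted p = 0.605) at CT9, -0.18 (SE 0.14, adjusted p = 0.551) at CT13, 0.08 (SE 0.15, adjusted p = 0.989) at CT17 and 0.08 (SE 0.15, adjusted p = 0.942) at CT21. *Cry2* was thus called at 2 of 6 times, against the shares of genes given above. The CT1 call was lost without any 1 of 4 mice, with adjusted p of 0.0926 without control SV455, 0.0773 without control SV468, 0.213 without Bmal1IEC-/- SV479 and 0.261 without SV480. With all 48 mice it was 0.00539. At CT1 2 of 8 epithelial markers, *Cdx2* and *Krt19*, were also higher and 1 of 5 fibroblast markers, *Dcn*, was lower. Their values are given with the marker lists, and their part in the result was not tested.

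Over all times *Cry2* was 1.2-fold higher in Bmal1IEC-/- mice (log2 fold change 0.27, SE 0.08, adjusted p = 0.0225), below the 1.5-fold threshold. An adjusted p under 0.05 in the higher direction was reached by 5.44% of genes. The control mean was 231 ± 83.6 (SD, n = 24) and the Bmal1IEC-/- mean 278 ± 45.1 (SD, n = 22). Without CT1 in either genotype the adjusted p was 0.121. The night minus day difference of the *Cry2* fold change was -0.66 on the log2 scale (SE 0.18, adjusted p = 0.195) and did not pass, whereas the shape of the time course differed between genotypes (adjusted p = 0.0152, and 0.0719 without CT1).

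Both cryptochromes were rhythmic in control colon by JTK_cycle, a rank test for a 24 h rhythm. The adjusted p was 1.06e-07 for *Cry1*, with its phase at CT18, and 9.39e-07 for *Cry2*, with its phase at CT14. In control mice 24.1% of the 32471 genes with a count passed this test. A cosine fit placed the peak of *Cry1* at 18 ± 0.329 h (SE) and that of *Cry2* at 14.4 ± 0.44 h (SE). The *Cry1* peak was thus 3.6 ± 0.48 h later (SE, with both genes measured in the same mice taken into account), and the cosine accounted for 86.5% of the variance of *Cry1* and 78.2% of that of *Cry2* over 24 mice.

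In Bmal1IEC-/- mice the amplitudes of both genes were small. The fitted amplitude of *Cry1* was 85.5 ± 7.36 normalized counts (SE) in control and 31.9 ± 6.18 (SE) in Bmal1IEC-/- mice, a ratio of 0.373. That of *Cry2* was 102 ± 11.8 (SE) and 35.2 ± 12.7 (SE), a ratio of 0.344. Relative to the baseline of each fit, the amplitude of *Cry1* was 0.678 in control and 0.113 in Bmal1IEC-/- mice, and that of *Cry2* 0.443 and 0.128. The baseline of *Cry1* stood at 126 ± 5.21 (SE) in control and 282 ± 4.43 (SE) in Bmal1IEC-/- mice, so the fitted trough in the mutant lay above the fitted peak of the control.

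The change of rhythm between genotypes was tested on the cosine and sine terms together. It passed for *Cry1* (adjusted p = 5.43e-07) and for *Cry2* (adjusted p = 0.00472), in a test that 0.94% of genes passed. Without CT1 the adjusted p was 4.57e-08 for *Cry1* and 0.0565 for *Cry2*, which ended the call for *Cry2*.

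Whether a rhythm was called in Bmal1IEC-/- mice depended on the test for both genes, and for *Cry2* also on the mice included. JTK_cycle called *Cry1* (adjusted p = 0.00271, phase CT22) and 14.2% of all genes. The edgeR test of any difference among the 6 times gave an adjusted p of 0.237 for *Cry1* in these mice, a test passed by 22.6% of genes. The same test gave 9.37e-16 for *Cry1* and 1.71e-09 for *Cry2* in control, where 45.5% of genes passed. A permutation test of the cosine fit over the 22 Bmal1IEC-/- mice (100000 permutations, unadjusted) gave p = 0.0004 for *Cry1* and p = 0.0437 for *Cry2*. The edgeR values are adjusted over all genes tested, and those of JTK_cycle over phases only. Unadjusted, the edgeR p in Bmal1IEC-/- mice was 0.116 for *Cry1* and 0.0769 for *Cry2*. For *Cry2* in these mice JTK_cycle gave an adjusted p of 0.067 and the edgeR test 0.18. Over all 48 mice both passed, at 0.00836 and 0.022, and without the low-count filter the edgeR test gave 0.0237. The JTK_cycle value of *Cry2* fell below 0.05 when any 1 of 5 mice was left out. It was 0.046 without SV440, 0.0246 without SV400, 0.0246 without SV395, 0.046 without SV437 and 0.0125 without SV470.

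Per kilobase of annotated exon, the balance of the 2 transcripts reversed in the course of the control day. It was measured in each mouse as the log2 ratio of *Cry1* to *Cry2* counts per kilobase of exon. This ratio does not depend on library size and is given without a test. Its sign rests on the lengths used, all annotated exon bases, 3340 for *Cry1* and 6320 for *Cry2*. The same lengths apply to every mouse, so differences between groups do not rest on them. In control mice the mean log2 ratio was 0.76 ± 0.19 (SD, n = 4) at CT1, -1.26 ± 0.39 (SD, n = 4) at CT5 and -1.18 ± 0.58 (SD, n = 4) at CT9. It was -0.16 ± 0.23 (SD, n = 4) at CT13, 0.39 ± 0.27 (SD, n = 4) at CT17 and 0.62 ± 0.51 (SD, n = 4) at CT21. *Cry2* was the more abundant per length in each control mouse at CT5 and CT9, and *Cry1* in each at CT17, CT21 and CT1. At CT13, 1 of 4 mice had more *Cry1*.

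In Bmal1IEC-/- mice *Cry1* was the more abundant per length in 22 of 22 mice, with single mice from 0.44 to 1.53. Group means ran from 0.67 ± 0.16 (SD, n = 4) at CT13 to 1.51 ± 0.03 (SD, n = 2) at CT1. On a linear scale the ratio at CT5 was 0.417 in control and 1.7 in Bmal1IEC-/- mice. The level per kilobase of exon over all times was 37.8 normalized counts for *Cry1* and 36.6 for *Cry2* in control, and 83.9 and 44.0 in Bmal1IEC-/- mice. Not divided by length, the means were 126.1 for *Cry1* and 231.1 for *Cry2* in control, and 280.1 and 277.9 in Bmal1IEC-/- mice.

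**Figure D3:**
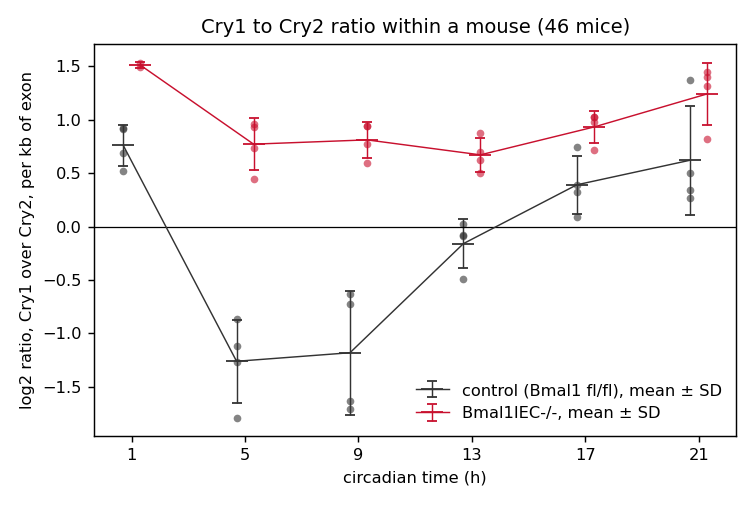
Log2 ratio of *Cry1* to *Cry2* counts per kilobase of exon (vertical axis) against circadian time in hours for single mice of the 46, with group mean ± SD. The control ratio falls to -1.26 at CT5 and rises above 0 by CT17, while each Bmal1IEC-/- mouse lies at 0.44 or higher.

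The 2 Bmal1IEC-/- mice outside the 46, both at CT1, also had high *Cry1*. SV384 had 279.8 and SV385 440.4 normalized counts of *Cry1*, both above every control mouse. SV385 was the highest of all 48 mice. Their *Cry2* values were 133 and 238, of which the first lay inside the control range at CT1. Their log2 ratios of 1.99 and 1.81 were above those of all other mice. With both included, the log2 fold change of *Cry1* at CT1 was 1.58 (adjusted p = 2.36e-09) and that of *Cry2* 0.64.

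The genes whose control time course was most like *Cry1* were sought by Pearson correlation of log2 CPM (counts scaled to a common library total) over the 24 control mice. These mice share circadian time, so a high r is a description of a shared phase. The 5 highest were *Mars*, the cytosolic methionyl-tRNA synthetase (r = 0.899), *Mlxipl*, the glucose-responsive transcription factor ChREBP (0.882), *B4galt4*, a galactosyltransferase (0.881), *Serp1*, a protein of the endoplasmic reticulum membrane (0.876), and *Abcd3*, a peroxisomal transporter (0.871). In the 22 Bmal1IEC-/- mice the same 5 had r of 0.256 to 0.415 with *Cry1*. The genes were picked by their r in control, so a weaker r in other mice follows in part from the choice. *Cry1* group means also spanned only 1.26-fold in Bmal1IEC-/- mice, against 5.63-fold in control. A loss of likeness was not tested, here or for the other genes picked in this way. JTK_cycle placed each of the 5 at the same phase as *Cry1* in control, CT18. Their log2 fold changes between genotypes lay between -0.18 and 0.07, and none of them passed both thresholds. By adjusted p alone *Abcd3* was lower (-0.18, adjusted p = 0.0372 in edgeR).

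The 5 lowest were *Surf1*, an assembly factor of cytochrome oxidase (r = -0.879), *Cdc25b*, a phosphatase of mitotic entry (-0.869), *Hmgb1*, a chromatin protein (-0.867), *Gucd1* (-0.862) and *Cckar*, a cholecystokinin receptor (-0.852). Their r in Bmal1IEC-/- mice ran from -0.657 for *Cdc25b* to -0.002 for *Gucd1*. In control *Arntl* had r = 0.165 with *Cry1*.

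For *Cry2* the gene most alike was another clock repressor, *Per2* (r = 0.935 over 24 control mice, 0.458 over 22 Bmal1IEC-/- mice). It was followed by *Zfp7*, a zinc finger gene (0.902), *Cbs*, cystathionine beta-synthase (0.9), *Fuk*, fucose kinase (0.898), and *Slc25a5*, a mitochondrial ADP/ATP carrier (0.895). The most opposed were *Trip13*, *Ndc1*, *Pigr*, *Ckap5* and *Esco2*, with r of -0.9 to -0.88 in control and -0.716 to -0.222 in Bmal1IEC-/- mice. *Trip13*, *Ckap5* and *Esco2* act in chromosome segregation or cohesion, *Ndc1* is a nuclear pore protein and *Pigr* carries IgA across the epithelium. *Cry1* and *Cry2* had r = 0.483 with each other in control and -0.264 in Bmal1IEC-/- mice.

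**Figure D4:**
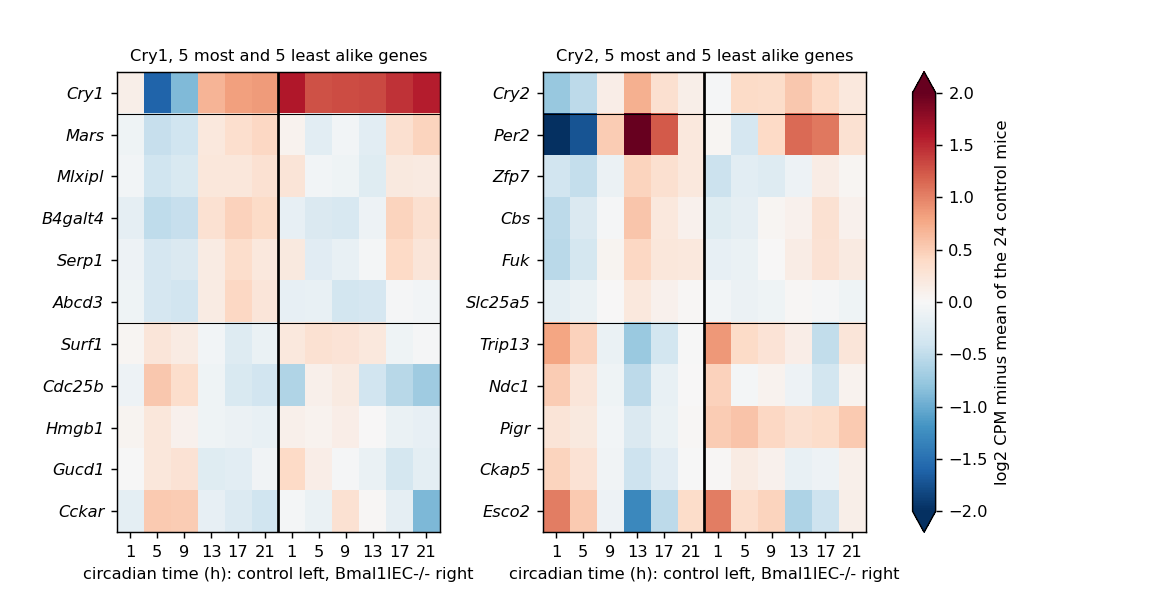
Mean log2 CPM in each group minus the mean of the 24 control mice (colour) for *Cry1* (left), *Cry2* (right) and the 5 most and 5 least alike genes of each, by circadian time in hours, with control columns left of the black line and Bmal1IEC-/- columns right. *Cry1* alone in its panel stays high in every Bmal1IEC-/- column, and *Per2* has a wider range than *Cry2*.

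Among the other clock genes *Cry1* had one of the higher rises. Of 17 listed clock genes 16 were tested, and 2 were called higher and 6 lower over all times, with a median log2 fold change of -0.19 against 0.00 for all genes. Of the 14475 genes tested 97 were called higher, and the share called lower was not counted. With single mice left out, 188 to 213 genes were called in either direction. The 2 called higher were *Npas2*, a partner of BMAL1 related to CLOCK (1.39, SE 0.12), and *Nfil3*, a repressor at D-boxes (1.04, SE 0.15). *Cry1*, at 1.28, lay between *Npas2* and *Nfil3*. The genes that fell most were *Nr1d2* (-1.74, SE 0.08) and *Nr1d1* (-1.48, SE 0.12), which encode the REV-ERB repressors, and *Ciart* (-1.40, SE 0.16), a repressor of CLOCK and BMAL1. Among these 5 the adjusted p was lowest for *Nr1d2* (2.86e-23) and highest for *Nfil3* (6.8e-07). A change of rhythm was called for 7 of the 16, against 0.94% of all genes. JTK_cycle called 15 of the 17 listed in control and 11 in Bmal1IEC-/- mice, against 24.1% and 14.2% of all genes.

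At CT5 0.311% of all genes were called higher, and the share called lower was not counted. At this time, where *Cry1* rose most, 5 of the 16 clock genes were called. There *Per2* rose by a log2 fold change of 1.38 (adjusted p = 0.000209), *Npas2* by 1.05 (adjusted p = 4.77e-06) and *Nfil3* by 1.81 (adjusted p = 8.6e-09). *Nr1d1* fell by 1.21 (adjusted p = 0.000707) and *Nr1d2* fell by 1.45 (adjusted p = 6.28e-08). At CT17, by contrast, the value for *Nfil3* was 0.51 (adjusted p = 0.174), while *Npas2* rose by 1.86 (adjusted p = 7.58e-12).

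**Figure D5:**
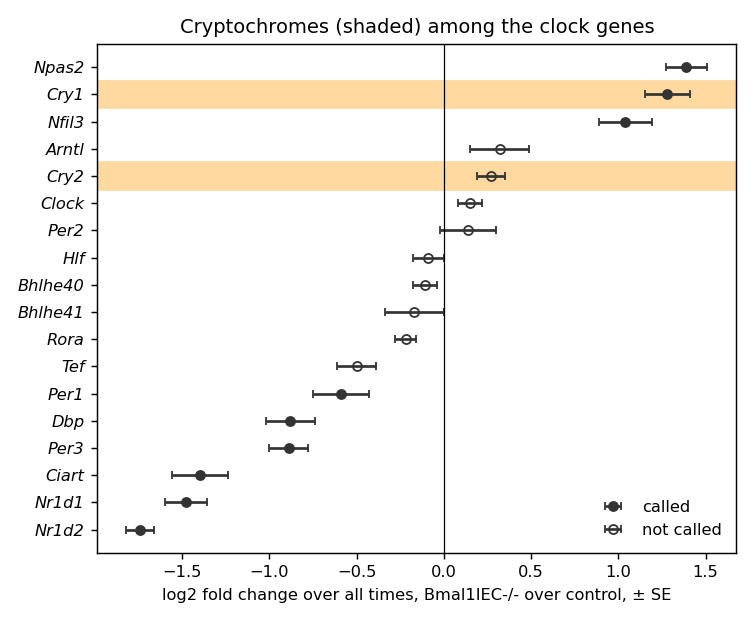
Log2 fold change over all circadian times, Bmal1IEC-/- over control, with SE (horizontal axis), for the 16 clock genes tested and the cryptochromes (shaded). Filled points passed an adjusted p of 0.05 and a fold of 1.5. *Cry1* (1.28) stands among the 3 genes called higher, and *Cry2* (0.27) is not called.

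A list of 14 genes for partners and regulators of cryptochromes was set beside *Cry1* and *Cry2*. Of these *Fbxl21*, *Csnk1d* and *Csnk1e* were not tested. Of the 11 tested, which include *Usp7*, a deubiquitinase, and *Gsk3b* and *Dyrk1a*, kinases, 0 were called for genotype over all times. Without the fold threshold 0 were higher and 2 lower, namely *Prkaa2*, a catalytic subunit of AMP-activated kinase (-0.32, adjusted p = 0.000774), and *Usp2*, a deubiquitinase (-0.42, adjusted p = 0.0305). Of all genes 5.44% were higher in this way, and the share lower, here or at single times, was not counted. The median of the 11 was 0.03. At single times 2 of the 11 were called. *Usp2* was lower at CT13 (log2 fold change -1.24, adjusted p = 9.31e-05) and changed its rhythm (adjusted p = 0.0183), and *Prkaa2* was lower at CT9 (-0.56, adjusted p = 0.046).

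Markers of the cell types in the tissue were summed in each mouse, and their part in the *Cry1* and *Cry2* results was not tested. The summed level of 8 epithelial markers ran from 5403 to 8070 CPM in control and from 6262 to 8559 in Bmal1IEC-/- mice, and that of 6 smooth muscle markers from 3555 to 5705 and from 3115 to 5311. The genotypes overlapped in both, and 0 of these 14 markers passed both thresholds. By adjusted p alone 4 epithelial markers were higher and 1 lower, and 2 muscle markers were lower. Of all genes tested 5.44% were higher by adjusted p alone, and the share lower was not counted. Of 5 fibroblast markers 1 was lower by adjusted p alone, with sums of 907 to 1589 and 825 to 1648 CPM. The same held for 2 of 3 endothelial markers (78.6 to 145 and 78.5 to 119 CPM) and 1 of 5 neuronal and glial markers (37.5 to 60.7 and 30.9 to 48.7 CPM), and for 0 of 4 myeloid markers (191 to 281 and 152 to 264 CPM). The 3 T-cell markers summed to 3.05 to 9.62 and 3.38 to 9.07 CPM, and the 2 B-cell markers to 0.939 to 6.46 and 0.484 to 8.16 CPM. *Ms4a1* was at 0 in 2 of 46 mice and *Cd3d* in 1, and the other 34 markers were detected in each mouse. At CT1, where both cryptochromes were called higher, 2 of 8 epithelial markers were also higher, *Cdx2* (log2 fold change 0.63, adjusted p = 0.0216) and *Krt19* (0.67, adjusted p = 0.0421). Of 5 fibroblast markers 1 was lower there, *Dcn* (-0.91, adjusted p = 0.000296). At CT13 1 of 8 epithelial markers, *Krt20* (-0.45, adjusted p = 0.00729), and 1 of 5 fibroblast markers, *Pdgfra* (-0.38, adjusted p = 0.03), were lower. The other epithelial markers ran from -0.15 (*Vil1*) to 0.25 (*Cdx2*) at CT13 and were not called. The share of all genes called higher at CT1 was 0.843%, and the share lower at single times was not counted. In *Cry2* 295 exon bases are overlapped by the antisense gene *D930015M05Rik*, which had 0 to 22 counts per mouse. The library kit keeps the strand but the strand setting of the counting is not given in the sources used here, so reads of these bases could not be assigned with certainty.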

How the data were processed

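The authors aligned paired reads of stranded poly(A) libraries to mm10 with STAR 2.7.5c and, after trimming, deposited whole-number read counts per gene from featureCounts 1.4.6 (exon reads, mapping quality of 4 or more), without normalization. The deposited counts were fitted here with edgeR 4.0.16 (TMM, quasi-likelihood F test, Benjamini-Hochberg adjustment over the 14475 genes kept by its low-count filter). The models held genotype and time, 12 groups, genotype by period, or genotype by 24 h cosine and sine terms. A gene was called at an adjusted p below 0.05, with a 1.5-fold change for genotype over all times. The SE of an edgeR log2 fold change was derived from its test, as the absolute value divided by the square root of F. Normalized counts use DESeq2 1.42.0 size factors. JTK_cycle (12 phases, corrected over phases and not over genes) and least-squares cosine fits were run per genotype. Named genes were both cryptochromes, *Arntl*, up to 3 called genes per direction of each list, and the 5 highest and 5 lowest correlations. The members, lists and tests were chosen with earlier results of these data known. Steps were tested on simulated data. The alternatives were all 48 mice, DESeq2's test or size factors, no filter, TMM-scaled CPM, a log2 scale, each mouse left out and, added after seeing the data, leaving out CT1, the alternatives for the time-course tests and a permutation test of the cosine fit. R 4.3.3 and Python 3.11.15 were used. Some genes of the lists are not reported here and are in none of their counts.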

Additional observations from a re-analysis of the deposited data

Results flagged for a closer look

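Effects of genotype that differed between circadian times stood out for both genes. For *Cry1* the time course differed between genotypes (adjusted p = 2.21e-10 in edgeR over 46 mice), with the genotype effect between 0.62 and 2.91 on the log2 scale and higher in Bmal1IEC-/- mice at 6 of 6 times. The genotype effect on *Cry1* also differed between day and night (adjusted p = 0.00121). For *Cry2* the time course differed between genotypes (adjusted p = 0.0152 in edgeR), with means higher in Bmal1IEC-/- mice at 5 of 6 times. The ratio of the end gap to the range stayed below Dixon's 95% critical value of 0.829 for 4 samples in each of the 24 sets of 4 mice tested, 12 groups for each gene. Chance would mark about 1 in 20 such groups.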

How the results depend on the processing

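For *Cry1*, the alternatives run kept the direction and the side of the threshold, except that the CT17 difference lost its call without control SV417 (range with single mice left out 0.56 to 0.67). For *Cry2*, leaving out CT1 lowered the genotype effect over all times to 0.21 (adjusted p = 0.121, no longer passing), and gave 0.0565 for the change of rhythm and 0.0719 for the time course. The effect of time on *Cry2* in Bmal1IEC-/- mice passed over all 48 mice (0.022) and without the low-count filter (0.0237), and JTK_cycle passed over all 48 (0.00836). With single mice left out, JTK_cycle gave *Cry2* 0.0125 to 0.226 in Bmal1IEC-/- mice, passing without SV440, SV400, SV395, SV437 or SV470. Its CT1 difference ran from 0.67 to 0.84, losing its call without SV455, SV468, SV479 or SV480. The CT17 difference ran from -0.02 (without SV437) to 0.13, and the CT21 difference from -0.09 (without SV470, and -0.08 without SV476) to 0.18, both never called. Genes called for genotype rose from 197 to 319 without the filter, and the cause was not tested. No paired analysis was possible because each replicate number names 1 mouse and recurs in no other group. In the CT1 group of 2 mice, leaving 1 out assumes that the other varies like the other groups. Low counts limit *Cry1* at CT5 and CT9 in control, where it had 26 to 93 counts per mouse.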
